A study of Mus musculus with 20 samples.

Results

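The genes that finish collagen inside the cell and cross-link it outside, together with the main chains of basement membrane collagen, were followed in cultured mouse cortical neurons deprived of oxygen and glucose. The members were named by symbol: the prolyl 4-hydroxylase subunits P4ha1, P4ha2 and P4hb, the lysyl hydroxylases Plod1, Plod2 and Plod3, the lysyl oxidases Lox and Loxl2, and the collagen IV chains Col4a1 and Col4a2. Of these 10 genes, 9 had a row in at least 1 of the 4 expression tables, among 14700 genes in all, and 8 had a row in all 4. Lox had no row and was not analysed here, and Loxl2 had no row in the normoxic comparison of the genotypes.

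Neurons were taken from embryonic day 15 cortices and grown for 7 days in Neurobasal medium with B27, and total RNA was sequenced after 12 h of treatment. Wild-type (WT) and knockout (KO) cultures both carried the strain label C57BL/6N-Cdr1asem1Nikr. The KO is of ciRS-7, a circular RNA made from the Cdr1as gene. The normoxic groups (N_WT and N_KO) received 25 mM D-glucose and 0.2 mM sodium pyruvate under 5% CO2. The oxygen-glucose deprived groups (OGD_WT and OGD_KO) were kept in the same base medium without that supplement at 1% O2 and 5% CO2. Each group held 5 libraries. A normoxic and a deprived library with the same number carry the same culture label and the same batch label, giving 10 cultures. The labels do not say whether the cultures came from separate animals, so the p-values measure the spread between these libraries, which may be partly technical.

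Collagen chains are made in the endoplasmic reticulum, where prolyl 4-hydroxylase converts proline residues to hydroxyproline and so makes the triple helix stable at body temperature. The lysyl hydroxylases modify lysine residues that later carry sugars or cross-links, and after secretion the copper-dependent lysyl oxidases turn lysines into the aldehydes that join neighbouring molecules. The hydroxylases use molecular oxygen, iron, alpha-ketoglutarate and ascorbate. P4ha1, P4ha2 and Plod2 are textbook targets of the hypoxia-inducible transcription factors, which bind a core element written ACGTG or GCGTG. In brain, collagen IV is a structural base of the vascular and pial basement membranes.

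The stretches upstream of the prolyl 4-hydroxylase subunits and of Plod1 are shown because the subunits were called higher under deprivation while Plod1 was not called. These genes were thus picked by outcome, and P4hb rose less than P4ha1 and P4ha2. No window was available for Plod2, Lox or Loxl2. Each is the 250 bases before the RefSeq start of the gene (GRCm38.p6), 5′ to 3′ on the gene's strand. Capitals mark ACGTG or GCGTG on either strand, so that CACGT and CACGC are matches on the other strand. The windows are chr10:59323046-59323295 (plus strand) for P4ha1, chr11:54100674-54100923 (plus strand) for P4ha2, chr11:120573254-120573503 (minus strand) for P4hb and chr4:147936777-147937026 (minus strand) for Plod1. The windows of P4ha1, P4hb and Plod1 lie outside the spans of these genes given below. That of P4ha2 lies within the gene's span given below, which begins further upstream at chr11:54100095.
P4ha1: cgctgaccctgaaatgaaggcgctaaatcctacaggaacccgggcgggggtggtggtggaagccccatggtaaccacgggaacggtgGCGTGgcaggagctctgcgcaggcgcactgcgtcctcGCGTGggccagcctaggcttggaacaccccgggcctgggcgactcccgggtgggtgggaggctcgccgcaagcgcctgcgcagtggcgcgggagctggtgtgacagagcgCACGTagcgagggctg
P4ha2: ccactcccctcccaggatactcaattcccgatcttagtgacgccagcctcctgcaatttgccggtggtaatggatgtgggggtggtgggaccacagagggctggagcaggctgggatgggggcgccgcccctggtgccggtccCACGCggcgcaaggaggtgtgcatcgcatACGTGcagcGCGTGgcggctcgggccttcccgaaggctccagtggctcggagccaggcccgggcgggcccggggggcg
P4hb: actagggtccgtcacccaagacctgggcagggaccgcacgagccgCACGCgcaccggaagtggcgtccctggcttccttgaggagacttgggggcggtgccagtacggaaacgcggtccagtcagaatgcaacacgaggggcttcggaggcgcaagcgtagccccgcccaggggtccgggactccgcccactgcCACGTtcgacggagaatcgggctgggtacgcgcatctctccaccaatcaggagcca
Plod1: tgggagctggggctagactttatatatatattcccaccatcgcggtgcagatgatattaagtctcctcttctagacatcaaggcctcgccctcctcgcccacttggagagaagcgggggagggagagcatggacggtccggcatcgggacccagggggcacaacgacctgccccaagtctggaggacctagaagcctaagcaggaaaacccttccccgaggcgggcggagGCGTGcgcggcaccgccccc

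P4ha1 held 3 matches, at 163, 126 and 16 bases before the start. P4ha2 also held 3, at 107, 78 and 69 bases, P4hb held 2, at 205 and 56 bases, and Plod1 held 1 at 20 bases. One match of ACGTG stood in each of the prolyl 4-hydroxylase windows and none in that of Plod1. Of 32851 RefSeq windows of the same length, 38.6% held at least 1 match, 16.7% at least 2, 6.58% at least 3 and 16.6% an ACGTG. Plod3, whose window is not printed, held 4 matches, a count reached or passed by 2.58% of windows. Col4a1 and Col4a2 held 1 GCGTG each and no ACGTG. A match is a string of letters and does not show that a factor binds there.

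Libraries held 7071603 to 16657766 reads over the genes of the tables that compare treatments. Levels are given as log2 CPM, read counts scaled to library size on a binary log scale, separately in each table, and a gene was called at an adjusted p under 0.05 in limma, with Benjamini-Hochberg adjustment over all genes of the table. The KO label held in every library: the Cdr1as locus stood at 6.63 ± 0.13 log2 CPM in N_WT and 0.31 ± 0.48 in N_KO (SD, n = 5 each), and at 6.37 ± 0.51 in OGD_WT and 0.11 ± 0.72 in OGD_KO. The neuron label was carried by all 12 neuron markers. They summed to 5735 to 6956 CPM in N_WT, 5869 to 6305 in N_KO, 2977 to 5017 in OGD_WT and 2616 to 4310 in OGD_KO. Marker levels in CPM, here and below, are scaled to plain library totals over the genes in both treatment tables, unlike the log2 CPM. On the log2 CPM of each table, 8 of 12 neuron markers were called lower under deprivation in each genotype. Map2, the most abundant, was not called (-0.20 in WT and -0.25 in KO). Astrocyte markers (8 of 9 with a row) summed to 1202 to 1612 CPM in N_WT and 1545 to 2100 in OGD_WT, and to 924 to 1716 in N_KO and 1159 to 2152 in OGD_KO.

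The libraries of batch 3.1, which are culture 5 of the WT and cultures 2 and 4 of the KO, stood apart. In normoxia they lay above all 7 other libraries for P4ha1, P4ha2, P4hb and Plod2, which is 4 of the 8 members measured, against 1.29% of all genes. Under deprivation they lay below all 7 others for P4ha2 and P4hb, against 1.26% of all genes. Results for these genes are therefore given with and without batch 3.1, an alternative chosen after the data were seen. That batch was picked on these same genes, so larger rises without it are no separate support. What sets these libraries apart was not tested.

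In WT neurons, oxygen-glucose deprivation raised the catalytic prolyl 4-hydroxylase subunits, Plod2 and Loxl2 5.07-fold to 8.41-fold, and raised P4hb and Plod3 less. Col4a2 fell, and Col4a1 and Plod1 did not pass the test. The members called were 7 of 9, namely 6 higher and 1 lower, in a comparison where 44.3% of all 14235 genes were called, 21.6% higher and 22.8% lower. The groups did not overlap for 6 of 9 members in WT and for 5 of 9 in KO, against 26.9% and 25.8% of all genes. In bulk RNA, fewer cells of a type and less RNA per cell cannot be told apart. The level of neuron markers fell alongside, with 8 of 12 called lower, and their part in these results was not tested. Scaling to plain library totals moved the median of all genes by -0.27 in WT and -0.28 in KO, and the share of calls that were higher from 3069 of 6313 genes to 1625 of 7369 in WT and from 3021 of 5884 to 1479 of 6768 in KO. Under that scaling P4hb lost its call in both genotypes (adjusted p = 0.125 in WT and 0.230 in KO) and Plod3 lost it in WT (0.0584), all by limma. P4ha1, P4ha2, Plod2 and Loxl2 were still called higher in both genotypes there, with log2 fold changes of 1.79 to 2.81 beside all-gene medians of -0.30 in WT and -0.28 in KO.

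P4ha1, the main catalytic alpha subunit (chr10:59323296-59373304, plus strand, GRCm38), read 4.36, 3.72, 4.12, 3.83 and 4.52 log2 CPM in N_WT cultures 1 to 5 and 7.06, 7.81, 7.12, 7.28 and 6.63 in OGD_WT. Every deprived library lay above every normoxic one. The mean went from 4.11 ± 0.34 to 7.18 ± 0.43 (SD, n = 5), a log2 fold change of 3.07 (SE 0.19; limma adjusted p = 1.38e-10), or 8.41-fold. In the KO it read 4.29, 4.87, 4.32, 4.74 and 3.38 in normoxia and 7.00, 6.52, 7.13, 7.11 and 7.57 under deprivation. The groups were again apart, with a log2 fold change of 2.75 (SE 0.23; limma adjusted p = 9.25e-08). Without batch 3.1 the changes were 3.31 in WT and 3.23 in KO.

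P4ha2, the alternative catalytic alpha subunit (chr11:54100095-54131665, plus strand), had fewer reads, between 16 and 71 per library in N_WT. It read 2.13, 1.48, 1.81, 0.94 and 3.28 log2 CPM in N_WT and 4.43, 4.96, 4.47, 4.62 and 3.41 in OGD_WT. The groups did not overlap, but culture 5 of batch 3.1 was the highest in normoxia and the lowest under deprivation, a rise of 0.13 within that culture. The mean rose by 2.45 (SE 0.31; limma adjusted p = 2.91e-06), from 1.93 ± 0.88 to 4.38 ± 0.58 (SD, n = 5), and by 3.03 without batch 3.1. In the KO the values were 2.02, 2.61, 1.77, 2.94 and 1.33 in normoxia and 4.01, 3.65, 4.35, 3.89 and 4.77 under deprivation. The groups were apart, with a rise of 2.00 (SE 0.26; limma adjusted p = 9.95e-06) and of 2.67 without batch 3.1.

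P4hb, which is protein disulfide isomerase and serves as the beta subunit of the enzyme (chr11:120560298-120573253, minus strand), moved less. It read 6.53, 6.23, 6.41, 5.92 and 7.32 log2 CPM in N_WT and 7.13, 7.76, 7.27, 7.35 and 6.36 in OGD_WT. Of 5 WT cultures, 4 rose, and culture 5 fell by 0.96 from the highest normoxic to the lowest deprived value. The change was 0.69 (SE 0.23; limma adjusted p = 0.0205), and 0.0874 with the culture as a replicate block. An exact permutation test of 5 against 5 libraries gave an unadjusted p of 0.103. KO values were 6.51, 7.01, 6.33, 6.54 and 6.03 in normoxia and 7.07, 6.54, 7.16, 7.03 and 7.51 under deprivation, with overlap at culture 2. The KO change was 0.58 (SE 0.19; limma adjusted p = 0.0210), and 0.0717 with the replicate block. Its exact permutation p was 0.0238, unadjusted. Without batch 3.1 the rise was 1.10 in WT and 0.96 in KO, both called. Since that batch was set apart by P4hb levels among others, these 2 calls are no separate support. The WT call was lost (limma adjusted p = 0.0613 to 0.0895) when OGD_WT culture 2 or 4 or N_WT culture 2 or 4 was left out, and the KO call (0.0528 and 0.0570) when N_KO culture 3 or 5 was or in batch 3 cultures alone (0.311).

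**Figure D1:**
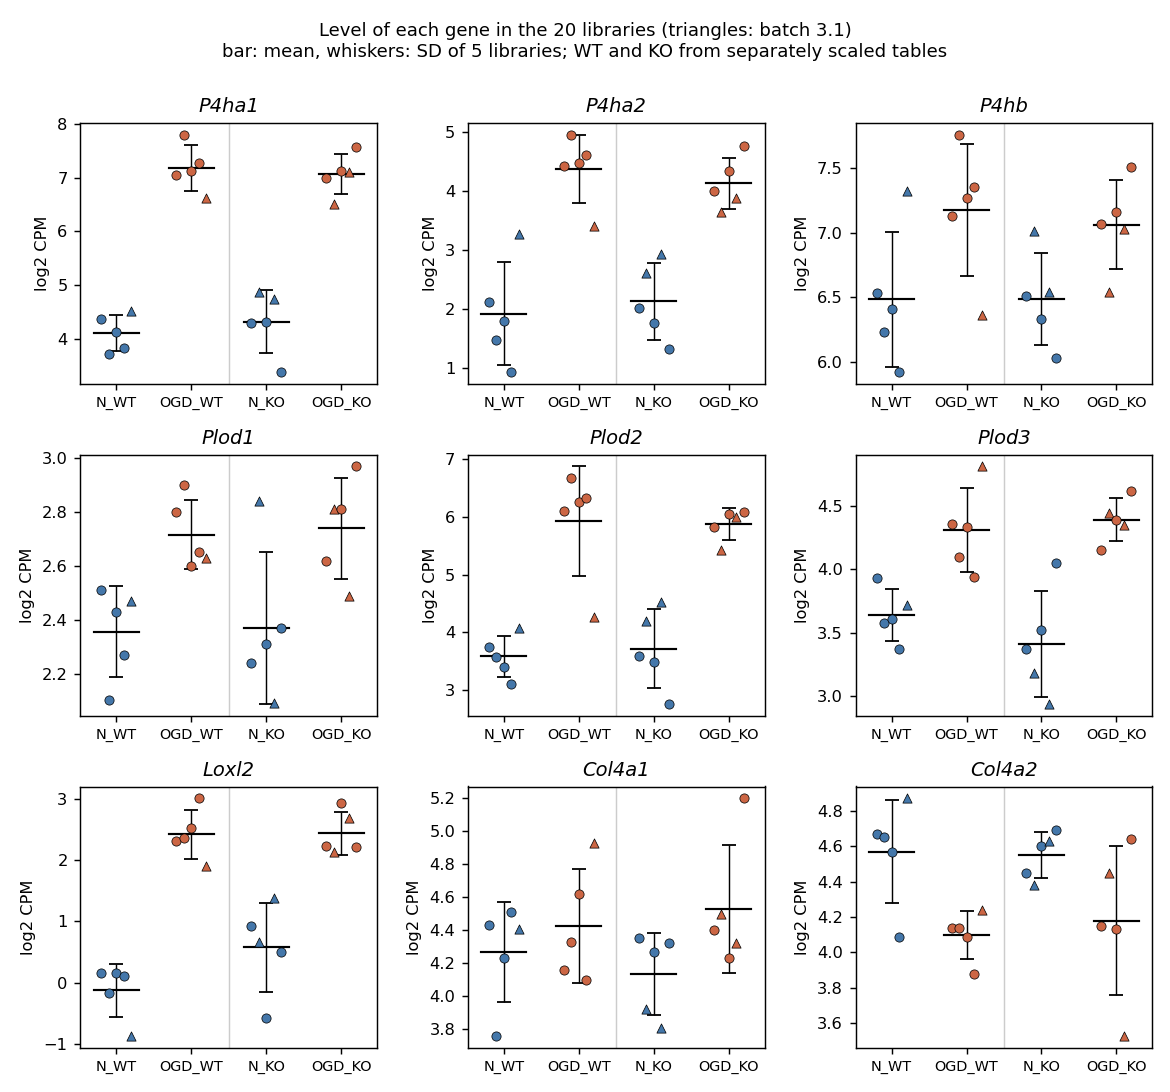
Level in log2 CPM (vertical axis) of the 9 measured genes in the 20 libraries of the 4 groups (horizontal axis), with the mean and SD of 5 libraries; triangles are batch 3.1. P4ha1, P4ha2, Plod2 and Loxl2 separate normoxia from deprivation in both genotypes, whereas P4hb and Col4a1 overlap; WT and KO were scaled in separate tables.

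Plod2, the lysyl hydroxylase that acts on the telopeptides where cross-links form (chr9:92542223-92608428, plus strand), was the lysyl hydroxylase with the largest change. It read 3.75, 3.57, 3.40, 3.11 and 4.07 log2 CPM in N_WT and 6.10, 6.67, 6.25, 6.33 and 4.27 in OGD_WT. The groups were apart by a margin that culture 5 of batch 3.1 set, since the other 4 deprived libraries lay between 6.10 and 6.67. The rise was 2.34 (SE 0.30; limma adjusted p = 3.13e-06), or 5.07-fold, and 2.88 without batch 3.1. In the KO it read 3.59, 4.19, 3.48, 4.53 and 2.76 in normoxia and 5.82, 5.43, 6.05, 5.99 and 6.09 under deprivation. The groups were apart, with a rise of 2.17 (SE 0.25; limma adjusted p = 2.36e-06) and of 2.71 without batch 3.1. The antisense gene Gm38391, which overlaps Plod2, was not called in either genotype (log2 fold changes of -0.27 and -0.24); the library kit keeps strand, but the strand setting of the authors' counting is not given in the sources used here.

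Plod3, which adds both hydroxyl groups and sugars to collagen lysines (chr5:136987019-136996648, plus strand), rose in all 10 cultures. It read 3.93, 3.58, 3.61, 3.37 and 3.72 log2 CPM in N_WT and 4.36, 4.10, 4.33, 3.94 and 4.81 in OGD_WT. The lowest deprived value, 3.94, lay just above the highest normoxic one, 3.93. The change was 0.67 (SE 0.17; limma adjusted p = 0.00269). In the KO it read 3.37, 3.18, 3.52, 2.94 and 4.05 in normoxia and 4.15, 4.44, 4.39, 4.35 and 4.62 under deprivation, groups apart, with a change of 0.98 (SE 0.18; limma adjusted p = 0.000304). Plod3 shares bases with Znhit1, which was not called (0.04 in WT and 0.17 in KO).

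Plod1, the lysyl hydroxylase of helical lysines (chr4:147909753-147936767, minus strand), changed little. It read 2.51, 2.10, 2.43, 2.27 and 2.47 log2 CPM in N_WT and 2.80, 2.90, 2.60, 2.65 and 2.63 in OGD_WT, without overlap. The difference was 0.36 (SE 0.15; limma adjusted p = 0.0600), short of the threshold. Its exact permutation p was 0.00794, unadjusted, the smallest that 5 against 5 can give. KO values were 2.24, 2.84, 2.31, 2.09 and 2.37 in normoxia and 2.62, 2.81, 2.81, 2.49 and 2.97 under deprivation, with overlap at culture 2. The difference there was 0.37 (SE 0.17; limma adjusted p = 0.0810), with an unadjusted exact permutation p of 0.0556. Plod1 passed the test in the KO without batch 3.1 (0.50; adjusted p = 0.0245), without N_KO culture 2 (0.0180) and without OGD_KO culture 4 (0.0498), and in WT without OGD_WT culture 4 (0.0492), all by limma.

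Loxl2, a lysyl oxidase that cross-links collagen IV (chr14:69609068-69695834, plus strand), was near the detection limit in normoxia, where N_WT libraries held 1 to 10 reads and N_KO libraries 2 to 21. It read 0.15, -0.17, 0.15, 0.10 and -0.87 log2 CPM in N_WT and 2.31, 2.36, 2.52, 3.01 and 1.91 in OGD_WT, where it had 33 to 70 reads. The groups were well apart, with a rise of 2.55 (SE 0.23; limma adjusted p = 2.66e-08). KO values were 0.92, 0.67, -0.58, 1.38 and 0.50 in normoxia and 2.23, 2.13, 2.93, 2.69 and 2.21 under deprivation. The KO rise was 1.86 (SE 0.28; limma adjusted p = 4.07e-05), with the groups apart. At counts this low the fold depends on the number added before the logarithm: with a prior count of 0.5 it was 3.28 in WT and 2.28 in KO. Of the 50-base words of its transcripts, 45.0% also occur in other annotated genes, mainly Gm21451 and Gm45509, so its level is uncertain where the authors' counting could split reads between copies.

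Neither Col4a1 nor Col4a2 was called higher in either genotype in the main fit, and among the measured enzymes the same was true of Plod1. Col4a5, a further collagen IV chain outside the members, is given below. Col4a1 (chr8:11198423-11312826, minus strand) read 4.43, 3.76, 4.23, 4.51 and 4.41 log2 CPM in N_WT and 4.16, 4.33, 4.62, 4.10 and 4.93 in OGD_WT, with overlap. The difference was 0.16 (SE 0.18; limma adjusted p = 0.496) and turned to -0.12 with plain library totals, not called under either scaling. In the KO it read 4.35, 3.92, 4.27, 3.81 and 4.32 in normoxia and 4.40, 4.50, 4.23, 4.32 and 5.20 under deprivation, a difference of 0.40 (SE 0.18; limma adjusted p = 0.0871).

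Col4a2 (chr8:11312805-11449287, plus strand) lies head to head with Col4a1, and the annotated genes share their first bases. It read 4.67, 4.65, 4.57, 4.09 and 4.87 log2 CPM in N_WT and 4.14, 4.14, 4.09, 3.88 and 4.24 in OGD_WT. The level was lower under deprivation in 5 of 5 cultures, although the groups overlapped at culture 4. The change was -0.48 (SE 0.15; limma adjusted p = 0.0165), and in batch 3 cultures alone -0.46 (adjusted p = 0.0756). KO values were 4.45, 4.38, 4.60, 4.63 and 4.69 in normoxia and 4.15, 4.45, 4.13, 3.53 and 4.64 under deprivation. The KO difference of -0.37 (SE 0.18; limma adjusted p = 0.0987) was not called, but was without OGD_KO culture 5 (-0.49; 0.0223) and with plain library totals (-0.67; 0.00363). In the KO, 6 of 9 members were called, all higher, against 40.9% of all 14375 genes called, 21.0% higher and 19.9% lower.

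Divided by the length of the merged exons, levels can be compared roughly between genes. The exons that the authors counted are not given in the sources used here, so the order depends on these lengths. In N_WT, P4hb stood highest at 32.9 ± 13.4 CPM per kilobase (SD, n = 5). P4ha1 (4.19 ± 1.01), Col4a2 (3.58 ± 0.679), Plod3 (2.69 ± 0.401), Col4a1 (2.57 ± 0.493) and Plod2 (2.20 ± 0.574) followed, each overlapping its neighbour in that order. Within single libraries P4ha1 lay above Col4a2 in 4 of 5 and Col4a2 above Plod3 in 5 of 5. Plod1 (0.701 ± 0.0864) and P4ha2 (0.650 ± 0.495) overlapped lower down, and Loxl2 was last at 0.0984 ± 0.0447. Under deprivation in WT, P4hb (52.7 ± 17.0) and P4ha1 (36.4 ± 11.3 CPM per kilobase) overlapped in range, but P4hb was the higher in 5 of 5 libraries. That order rests on the lengths, 2861 bases for P4hb and 4114 for P4ha1. By reads P4ha1 was the higher in OGD_WT cultures 2 (2382 against 2305) and 5 (975 against 806), and P4hb in the others. The ratio of P4hb to P4ha1 within a library was 6.26 to 10.1 in N_WT and 1.19 to 1.59 in OGD_WT. In the KO it was 5.06 to 9.32 in normoxia and 1.36 to 1.51 under deprivation. Plod2 came next at 12.8 ± 5.67 and lay above Plod3 (4.39 ± 1.08) in 4 of 5 libraries. The exception was culture 5 of batch 3.1, with Plod2 at 3.49 and Plod3 at 6.12, whereas Plod2 was at least 12.6 in the other 4. Plod3 was followed by P4ha2 at 3.46 ± 1.19, Col4a1 at 2.90 ± 0.745 and Col4a2 at 2.53 ± 0.232, overlapping from each to the next. Loxl2 (0.946 ± 0.293) and Plod1 (0.915 ± 0.0892) were lowest and overlapped.

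The size of the response went with the batch label, in a pattern seen after the values were examined. The 3 batch 3.1 cultures gave P4ha1 differences of 1.66 to 2.37 log2 units and the 3 batch 3.3 cultures 3.45 to 4.19. For P4ha2 the ranges were 0.13 to 1.04 and 3.43 to 3.68. For P4hb they were -0.96 to 0.49 and 1.43 to 1.53, and for Plod2 0.19 to 1.46 and 3.10 to 3.33. Cultures of the other labels lay between for P4ha1, P4ha2, P4hb and Plod2. For Plod3 batch 3.1 was the higher, with 1.09 to 1.40 against 0.53 to 0.57 in batch 3.3, and WT culture 1 of batch 1 was the lowest at 0.43. Plod1, Col4a1, Col4a2 and Loxl2 overlapped between these batches. The median of 9 hypoxia reference genes moved with the enzymes, at 0.96 to 1.17 in batch 3.1 and 2.89 to 3.47 in batch 3.3. Both batches hold WT and KO cultures (1 and 2 in batch 3.1, 2 and 1 in batch 3.3), and the part of the batch in the size of the response was not tested.

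**Figure D2:**
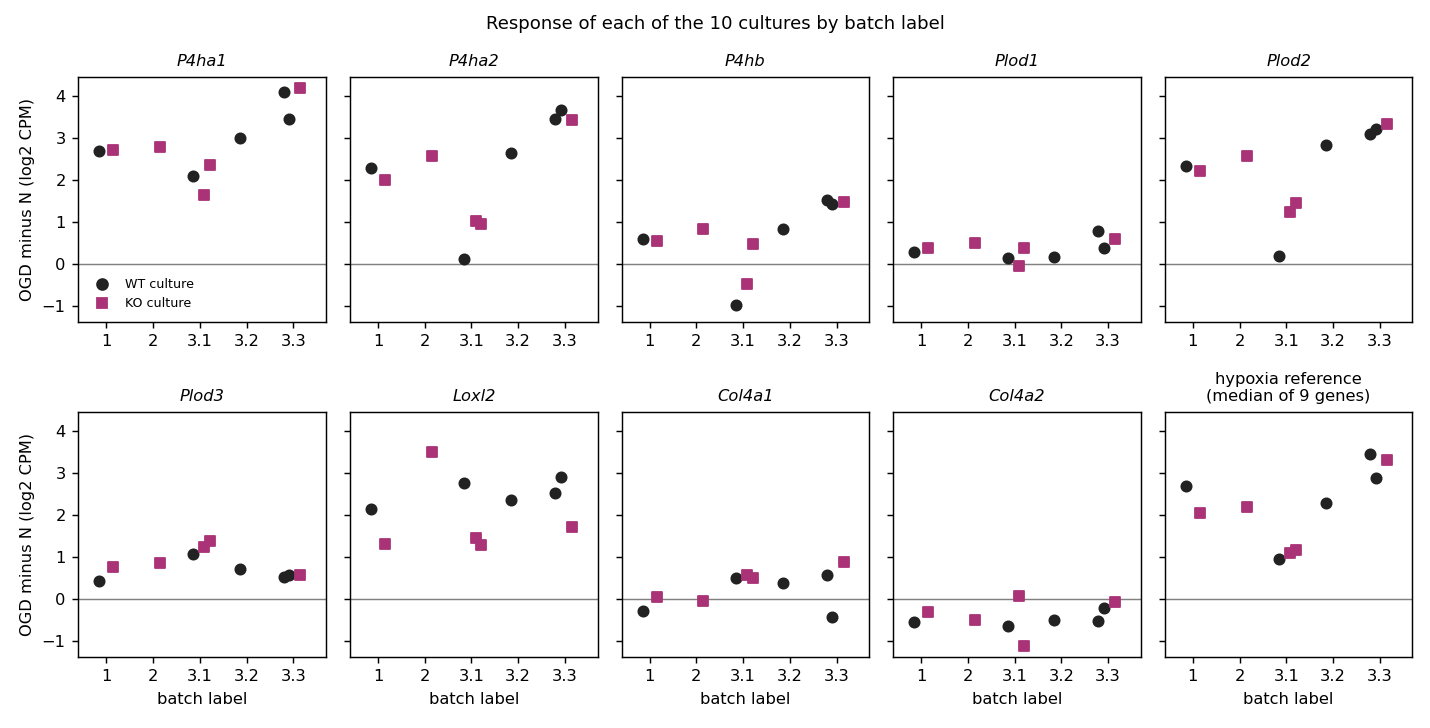
Deprived minus normoxic level (vertical axis, log2 CPM) in each of the 10 cultures, by batch label (horizontal axis); circles are WT and squares KO. Batch 3.1 cultures lie lowest and batch 3.3 cultures highest for P4ha1, P4ha2, P4hb, Plod2 and the hypoxia reference median. For Plod3 the batch 3.1 cultures lie highest.

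With the group means removed, P4ha1, P4ha2, P4hb and Plod2 moved together over the 20 libraries. Pearson's r was 0.83 for P4ha1 with P4ha2, 0.91 for P4ha2 with P4hb, and 0.82 for Plod2 with each of P4ha1, P4ha2 and P4hb. Plod3 had negative coefficients with them, -0.69 to Plod2, -0.55 to P4ha1, -0.41 to P4ha2 and -0.38 to P4hb. Loxl2 stood at 0.28 to Plod2 and 0.10 to P4ha1, and the collagen IV chains at 0.25 to each other. These libraries share cultures and batches, so the coefficients are descriptions. Over the same 20 libraries without that step, the genes most like P4ha1 were Slc2a1, the glucose transporter (r = 0.989), Ciart (0.987) and Vegfa (0.982). Those most like Plod2 were the collagen gene Col12a1 (0.981), lactate dehydrogenase Ldha (0.976) and Fam162a (0.971). For P4ha2 they were Itprid2 (0.978), the oxygen-sensing prolyl hydroxylase Egln3 (0.969) and Gpi1 (0.968). The closest genes to P4hb were Tbl2 (0.925) and Bnip3l (0.913), to Plod3 Zbtb17 (0.931), to Loxl2 the lactate transporter Slc16a3 (0.919), to Col4a2 Smarcc2 (0.953), to Col4a1 Nckap5 (0.882) and to Plod1 Tceal9 (0.822).

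The rest of the pathway was described from lists of neighbours. Of 23 other collagen-modifying and collagen-folding genes, 20 were tested in WT and 6 were called higher and none lower, with a median log2 fold change of 0.16 against -0.03 for all genes. In the KO, 7 of 19 were called higher and none lower, with a median of 0.29 against 0.00. Of all genes, 44.3% were called in WT (21.6% higher) and 40.9% in KO (21.0% higher). Counting calls of either sign, the list held no larger share than all genes. Its share called higher, 6 of 20 in WT and 7 of 19 in KO, was larger than that of all genes. That difference in share was not tested. Serpinh1, the collagen chaperone, rose by 1.77 in WT (SE 0.21; limma adjusted p = 9.88e-07) and 1.72 in KO (SE 0.16; 2.23e-07). P3h2, a prolyl 3-hydroxylase, rose by 0.90 and 1.07, and P4ha3, the remaining catalytic alpha subunit, by 0.59 and 0.53.

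Of 25 other basement membrane genes, 19 were tested in each genotype, and 9 were called higher and 1 lower in WT and in KO. That is 10 of 19 called in each, beside 44.3% of all genes in WT and 40.9% in KO. Their median was 0.32 in WT and 0.49 in KO, beside all-gene medians of -0.03 and 0.00. The laminin chain genes Lama5 (1.45 in WT and 1.54 in KO) and Lamc1 (1.06 and 1.04) and the collagen-binding protein gene Sparc (0.98 and 0.94) rose. Col4a5, another collagen IV chain, rose by 0.82 in WT (SE 0.21; limma adjusted p = 0.00282) and by 0.97 in KO (SE 0.18; 0.000386). That gene was picked after its values were seen.

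Of 31 other collagen chains, 19 were tested in WT, with 8 called higher and 4 lower, and 21 in KO, with 9 higher and 3 lower. That is 12 of 19 and 12 of 21 called, beside the same shares of all genes, with medians of 0.35 and 0.50. Col12a1, a fibril-associated collagen, rose by 1.95 in WT (SE 0.24; limma adjusted p = 2.19e-06) and 1.72 in KO (SE 0.21; 4.93e-06). Col11a1 rose by 1.11 and 1.12, and Col7a1 by 0.77 and 1.39. The membrane collagen gene Col25a1 fell by 0.55 in WT and 0.92 in KO, Col26a1 by 0.81 and 0.67, and Col19a1 by 0.67 and 0.80. Of 10 hypoxia reference genes, 9 were tested, 8 called higher and 1 lower in both genotypes, with medians of 2.12 and 1.76. Slc2a1 rose most in both (3.95 in WT and 3.50 in KO), and Ndrg1 was the gene that fell.

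**Figure D3:**
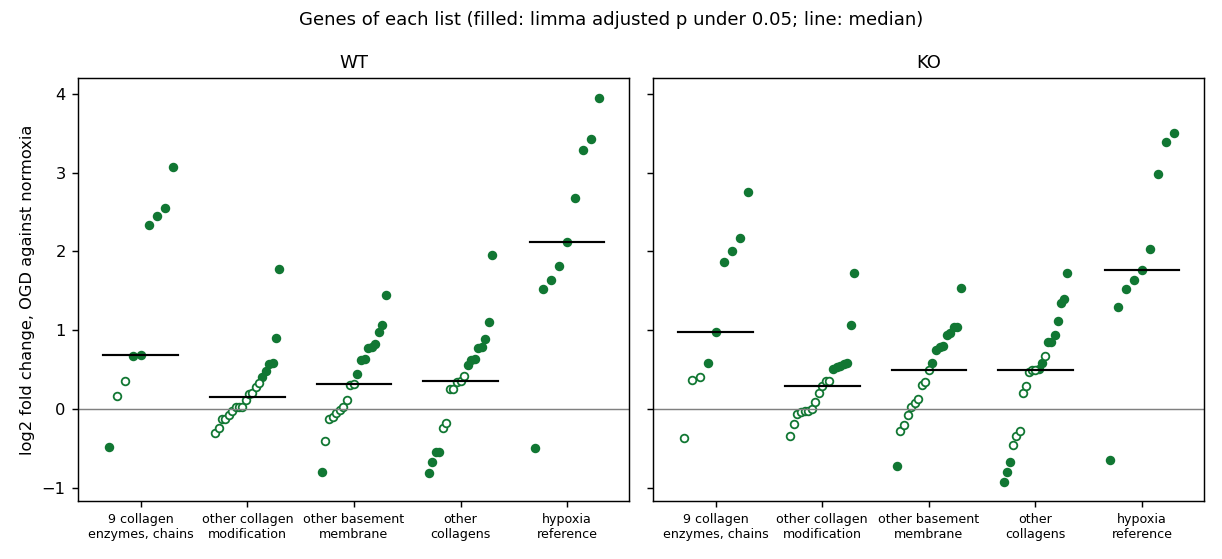
Log2 fold change, deprivation against normoxia (vertical axis), of the genes of each list (horizontal axis) in WT and KO; filled points have a limma adjusted p under 0.05 and the line is the median. The hypoxia reference genes have medians of 2.12 and 1.76, and the neighbouring collagen and basement membrane lists medians of 0.16 to 0.50.

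Collagen IV and its enzymes are also made by vascular and meningeal cells, whose markers were scarce. Of 12 endothelial markers, 1 had a row in both tables of treatment, Kdr, at 0.380 to 1.32 CPM in N_WT, 0.760 to 1.61 in OGD_WT, 0.461 to 0.948 in N_KO and 0.801 to 2.55 in OGD_KO, and Pecam1, Cldn5 and Cdh5 had none. Kdr was called higher under deprivation, by 0.60 in WT and 1.11 in KO. Of 9 mural cell markers 3 had a row, summing to 3.79 to 7.07 CPM in N_WT, 5.70 to 6.29 in OGD_WT, 1.89 to 4.88 in N_KO and 3.60 to 8.14 in OGD_KO. Of these, Tagln (2.39 in WT and 2.69 in KO) and Acta2 (1.42 and 1.94) were called higher in both genotypes, while Pdgfrb fell by 0.66 in WT and stood at -0.30 in KO, not called. Of 11 fibroblast and meningeal markers 4 had a row, summing to 46.5 to 80.5 CPM in N_WT, 135 to 155 in OGD_WT, 57.6 to 77.3 in N_KO and 93.9 to 144 in OGD_KO, most of it Fn1. Called higher in both genotypes were Fn1 (1.44 in WT and 1.32 in KO), Lgals1 (1.05 and 1.54) and Igf2 (0.91 and 0.62), and none of this list was called lower. No microglia marker of 9 had a row. Astrocyte markers, given above, had 5 called higher and 1 lower of 8 in WT, and 4 higher and none lower in KO. Progenitor and proliferation markers (9 of 9) summed to 655 to 919 CPM in N_WT, 960 to 1516 in OGD_WT, 635 to 936 in N_KO and 933 to 1448 in OGD_KO. Of 8 oligodendrocyte lineage markers 7 had a row, at 304 to 395, 283 to 447, 215 to 425 and 214 to 367 CPM in the same order. The part of any of these cells in the members' changes was not tested.

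No member passed the test between the genotypes in either condition. In normoxia 0 of 8 members were called, in a comparison where 0.0353% of 14152 genes were; at an unadjusted p under 0.05 the count was also 0. The differences, KO minus WT, ran from -0.20 for Plod3 to 0.25 for P4ha1, whose 95% interval was -0.23 to 0.73, with limma adjusted p of 1 for each. P4ha2 had the widest interval, 0.24 with -0.51 to 0.99, and Col4a2 lay at 0.02 with -0.29 to 0.32. Under deprivation 0 of 9 were called, against 0.0282% of 14185 genes, and 0 had an unadjusted p under 0.05. There P4ha2 stood at -0.23 (-0.76 to 0.30), P4ha1 at -0.10 (-0.55 to 0.35), Plod2 at -0.03 (-0.72 to 0.65) and Loxl2 at 0.03 (-0.42 to 0.48). Batch 3.1 holds 1 WT and 2 KO cultures. Without that batch, P4ha1, P4ha2, P4hb and Plod2 stood at 0.03, 0.15, 0.05 and -0.15 in normoxia. Under deprivation they stood at -0.06, -0.22, -0.11 and -0.33 (SE 0.20, 0.20, 0.18 and 0.16). No member was called in either condition without that batch.

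The treatment response was also compared between genotypes directly, as an interaction on a joint scale with the culture as a block. No gene of 13688 was called (0%), and 100 had an unadjusted p under 0.05. None of the 8 members tested was among them. Those 100 are fewer than that threshold would pass if no gene differed, so absence from them says little. The response in KO minus that in WT was -0.34 for P4ha1 (95% interval -1.04 to 0.36), -0.48 for P4ha2 (-1.47 to 0.52), -0.18 for Plod2 (-1.15 to 0.78) and 0.31 for Plod3 (-0.28 to 0.89), with limma adjusted p of 1. With a treatment effect fitted for each batch label, an alternative added after the data were seen, the signs turned, to 0.04 for P4ha1, 0.11 for P4ha2 and 0.38 for Plod2, none called. Loxl2, on a joint scale of the genes in both treatment tables added after the data were seen, gave -0.86 (-1.94 to 0.21). The intervals of P4ha1, P4ha2, Plod2 and Loxl2 reach below -1, so a KO response smaller by 1 log2 unit lies within them.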

How the data were processed

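Total RNA was sequenced from 20 libraries in 4 groups of 5, per the labels. The authors deposited 4 tables of log2 CPM, 1 for each pair of groups, holding 14152 to 14375 genes, and the submitters' processing notes name the build mm10. The aligner, the counter and the strand setting are not given in the sources used here. The values show that, per gene and within each 5 libraries of a group, both extremes had been pulled in to the 10th and 90th percentile (weight 0.6 on the extreme and 0.4 on its neighbour). This was undone by inversion, after which at least 99.91% of values up to 500 reads lay within 0.05 of a whole read, against 45.5% to 92.8% as deposited. The restored values differ from the deposited ones in every group, and the deposited ones were kept as an alternative.

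Linear models were fitted within each table by limma, version 3.58.1 under R 4.3.3, moderated with a mean trend and without a block, two-sided, with Benjamini-Hochberg adjustment over all its genes. A two-sided exact permutation test of the mean log2 CPM, 5 against 5 libraries and unadjusted, was also run for each member. For deprivation, P4ha1, P4ha2, Plod2, Plod3 and Loxl2 reached its smallest possible p, 0.00794, in both genotypes. The interaction used reads recovered from the tables, 13688 genes, a prior count of 2 and the culture as a block (correlation -0.169). Normoxic and deprived libraries of the same number share culture and batch labels, so they are paired by the labels. Their deviations from the group means correlated at -0.66 to 0.05 in WT and -0.77 to -0.07 in KO. The main p-values leave out this pairing. With the replicate block, WT SEs were larger for P4ha1, P4ha2, P4hb, Plod1 and Plod2 and smaller for Plod3, Loxl2 and Col4a2. Exon lengths and positions come from GENCODE vM21 and upstream sequences from RefSeq, where 7 of 10 members matched. A limma fit of the same kind between a pair of groups was tested on simulated data, while the block, covariate and interaction fits were not.

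The members and the gene lists were chosen with earlier results of these data known. Named genes were all members and Cdr1as, plus from each neighbour list up to 3 genes with the largest rise and up to 3 with the largest fall among those called in both genotypes with the same sign. The 3 genes most correlated with each member over 20 libraries and the most abundant gene of each marker list were also eligible. One gene that this rule names is not reported here. Hypoxia reference genes and other genes named outside this rule were chosen after their values were seen. Alternatives covered the clipping, the block, the prior count, the scaling, a filter on low values, the batch label and leaving out each library.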

Additional observations from a re-analysis of the deposited data

Results flagged for a closer look

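Of 36 groups of 5 libraries examined (9 genes in 4 groups), 2 held a library far from the rest, and chance alone would give about 1.80. Plod2 in OGD_WT culture 5 stood at 4.27 log2 CPM, whereas the other 4 libraries lay between 6.10 and 6.67, a gap of 0.762 of the whole range against a critical value of 0.71. That culture carries batch label 3.1, and its part in the value was not tested. Without the batch 3.1 culture the WT rise of Plod2 was 2.88 in place of 2.34. Col4a1 in OGD_KO culture 5 stood at 5.20 log2 CPM, whereas the others lay between 4.23 and 4.50, a gap of 0.725 of the range.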

How the results depend on the processing

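Over all alternatives, 861 values of single members were recomputed. Of these 793 kept their direction and their side of the threshold, 10 crossed into a call, 13 lost one, and 45 changed sign, none of which was called. The calls that moved were those of P4hb, Plod1, Plod3, Col4a1 and Col4a2, and no call of P4ha1, P4ha2, Plod2 or Loxl2 moved in these alternatives. The planned count model (edgeR) was not run, because the deposited unit is log2 CPM. Trimmed-mean scaling was computed directly.

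Leaving out each library gave 5250 to 6635 genes called in WT and 4908 to 5930 in KO under deprivation (6 to 7 and 5 to 7 members), 3 to 5 between genotypes in normoxia and 1 to 7 under deprivation, with 0 members. With the replicate block, which pairs libraries of the same number, 5681 genes (6 members) were called in WT and 4829 (5 members) in KO, and it changed no member's call other than that of P4hb. Between genotypes, where the numbers carry no stated pairing and same-numbered deviations correlated at -0.09 to 0.23 and -0.22 to 0.22, the replicate block gave 3 and 2 genes. Deposited values, with their clipping, gave 8280 and 8024 genes (8 and 9 members) for deprivation, adding Plod1 in WT and Plod1, Col4a1 and Col4a2 in KO, and 9 and 12 genes between genotypes. The KO count fell to 2341 in batch 3 cultures alone, where fewer libraries entered. Between genotypes in normoxia the count was 3 with a filter at a mean of 1 log2 CPM and 2 in batch 3 cultures. Under deprivation it was 1 with a prior count of 0.5, and 2 both with plain library totals and with the main batch (1, 2 or 3) as a covariate. That covariate does not separate batch 3.1 from 3.2 or 3.3. The interaction gave 19 genes with a treatment effect for each batch label, and 0 otherwise.

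The changes of sign were small. With plain library totals WT Col4a1 was -0.12 for deprivation and Col4a2 -0.01 between genotypes in normoxia, as it was with deposited values. Without batch 3.1, normoxic genotype differences were 0.06 for Plod3, 0.12 for Col4a1 and -0.15 for Plod2. The deprived one was -0.08 for Loxl2, which was -0.10 in batch 3 cultures and -0.09 with the main batch as a covariate. With a treatment effect for each batch label the interaction was 0.04 for P4ha1, 0.11 for P4ha2, 0.26 for P4hb and 0.38 for Plod2. Leaving out 1 library, the normoxic genotype difference ran from -0.02 to 0.59 for P4ha2, -0.08 to 0.11 for Plod1, -0.10 to 0.25 for P4hb, -0.11 to 0.09 for Col4a2 and -0.05 to 0.40 for Plod2. The deprived one ran from -0.02 to 0.10 for Plod1, -0.24 to 0.06 for P4ha1, -0.30 to 0.05 for P4hb, -0.05 to 0.24 for Col4a1, -0.02 to 0.26 for Col4a2, -0.45 to 0.15 for Plod2 and -0.10 to 0.18 for Loxl2. Leaving out 1 culture, the interaction ran from -0.52 to 0.15 for P4hb, -0.01 to 0.25 for Col4a2 and -0.71 to 0.06 for Plod2. The cause of these shifts was not tested. Depth limits Loxl2 in normoxia most.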
